A study of Mus musculus with 12 samples.

Results

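CD4+ and CD8+ T cells from the lymph nodes (LN) of C57BL/6 (B6) mice were compared with each other by RNA-seq, across all classes of genes. The comparison takes every sample whose column in the deposited count table is named for B6 and for CD4 or CD8, which gives 3 B6 CD4+ and 3 B6 CD8+ samples, 6 of the 12 in the series. The other 6 samples are CD8.1 and CD8.2 T cells, 3 of each, from 8in4 mice (CD8 Dual in the study), whose *Cd4* locus was rewritten to encode CD8 chains. The study made these mice to look for mechanisms behind the different fates of CD8+ T cells. Mice of all 4 groups were male and 6–10 weeks old, and the B6 mice were of the strain C57BL/6, with no modified allele and no treatment in the labels. Cells were sorted by surface stains, among them TCRβ (antibody H57) and either CD4 or CD8, and pooled before RNA was prepared. The study's methods add a gate on CD44- cells, which the labels do not mention. Libraries came from a low-input kit, named in the study's methods as SMARTer Universal Low Input RNA Kit. The authors counted reads per gene with STAR and RSEM on mm10. The labels do not say whether read strand was used, nor whether the replicates came from separate mice, so the *P* values below measure only the spread between these samples.

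Helper and cytotoxic T cells arise from thymocytes that carry both co-receptors. CD4 binds MHC class II and CD8 binds MHC class I, and the transcription factors ThPOK (encoded by *Zbtb7b*) and Runx3 restrain each other and direct cells to the helper or the cytotoxic fate. Before they meet antigen, cells of both lineages recirculate through lymph nodes and live on IL-7 and on weak signals from self peptides. LN CD4+ cells also include Foxp3+ regulatory T cells, and LN CD8+ cells include memory-like cells that have not met a foreign antigen.

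The 3 CD4+ samples held 21201337, 22750616 and 22410845 counts, and the 3 CD8+ samples held 24418062, 27637080 and 20386247, in the order of replicates 1 to 3 that is kept throughout. Values are CPM, counts scaled to a common library size after TMM normalization, group values are means ± SD with *n* = 3, and log2 fold changes are CD4+ over CD8+, so that a negative value means higher in CD8+ cells. With these depths, 3 counts in a library equal 0.109 to 0.144 CPM, which is taken as the floor where a group has 0 counts. Such floors, and the intervals given for genes with 1 to 3 counts in the lower group, cover counting error only. The samples matched their labels: *Cd4* stood at 1004, 995 and 908 CPM in the CD4+ samples and at 0.287, 0.109 and 0.337 in the CD8+ samples. The reverse held for *Cd8a*, with 0.682, 1.34 and 1.49 CPM in the CD4+ samples against 1389.9, 1479 and 1400.1 in the CD8+ samples. The partner chain *Cd8b1* was less cleanly divided, with 30.0, 33.8 and 35.6 CPM in the CD4+ samples against 2233, 2339 and 2133 in the CD8+ samples. No column of the table was without a sample.

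The comparison asks which genes separate the lineages in cells with no treatment in the labels. Of 13118 genes tested, 3030 passed a limit of 0.05 on the *P* value of edgeR's quasi-likelihood test after Benjamini-Hochberg adjustment (adjusted *P*), which is 23.1% of those tested. With this scaling they split evenly, with 1499 genes (11.4%) higher in CD4+ cells and 1531 (11.7%) higher in CD8+ cells, and 2801 of them code for proteins. Upper quartile scaling gave 1718 and 1351 genes and library totals 1707 and 1264, so the evenness of the split depends on the scaling. The large changes are a small part. The study's own limits are a fold change over 5 and a *P* under 0.05, which was taken here as unadjusted. With them, 215 genes (1.64%) were higher in CD4+ cells and 216 (1.65%) in CD8+ cells, and 421 of these also passed the adjusted limit. In 25 of them the lower group had 0 counts, and in 75 it had 1 to 3 counts. Their balance depends on the filter, with 624 and 351 genes without a filter on low counts and 94 and 144 at a mean of 1 CPM. The values of the 3 CD4+ samples lay entirely above or entirely below those of the 3 CD8+ samples for 5114 tested genes (39.0%), and 13 of the genes past the study's limits did overlap. The median log2 fold change of all tested genes was −0.0011.

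Most differences were small, and genes at all levels of expression held them. Of the genes past the adjusted limit, 910 higher in CD4+ cells and 1016 higher in CD8+ cells changed by less than 2-fold. At a mean of 100 CPM or more, 446 of 1625 genes differed (27.4%), with a median change of 1.31-fold. Only 12 genes at this level passed the 5-fold limit. At 10 to 100 CPM, 1421 of 6365 genes differed (22.3%), by a median of 1.41-fold. At 1 to 10 CPM, 846 of 3246 genes differed (26.1%), by a median of 2.16-fold. Below 1 CPM, where small changes have less chance to pass the test, 317 of 1882 genes differed (16.8%), with a median change of 5.48-fold. Among 1480 genes with at least 100 CPM in each group, 133 (8.99%) were higher in CD4+ cells by less than 2-fold and 202 (13.6%) were higher in CD8+ cells by less than 2-fold. Which lineage has more of these depends on the scaling, as upper quartile scaling gave 172 and 157 and library totals 175 and 146. Long intergenic RNAs differed in 20 cases toward CD4+ and 35 toward CD8+ of 208 tested, and antisense RNAs in 23 and 18 of 208. Exons of 1038 of the genes that differed overlap exons of another gene, so their counts may hold reads of that neighbour.

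**Figure D1:**
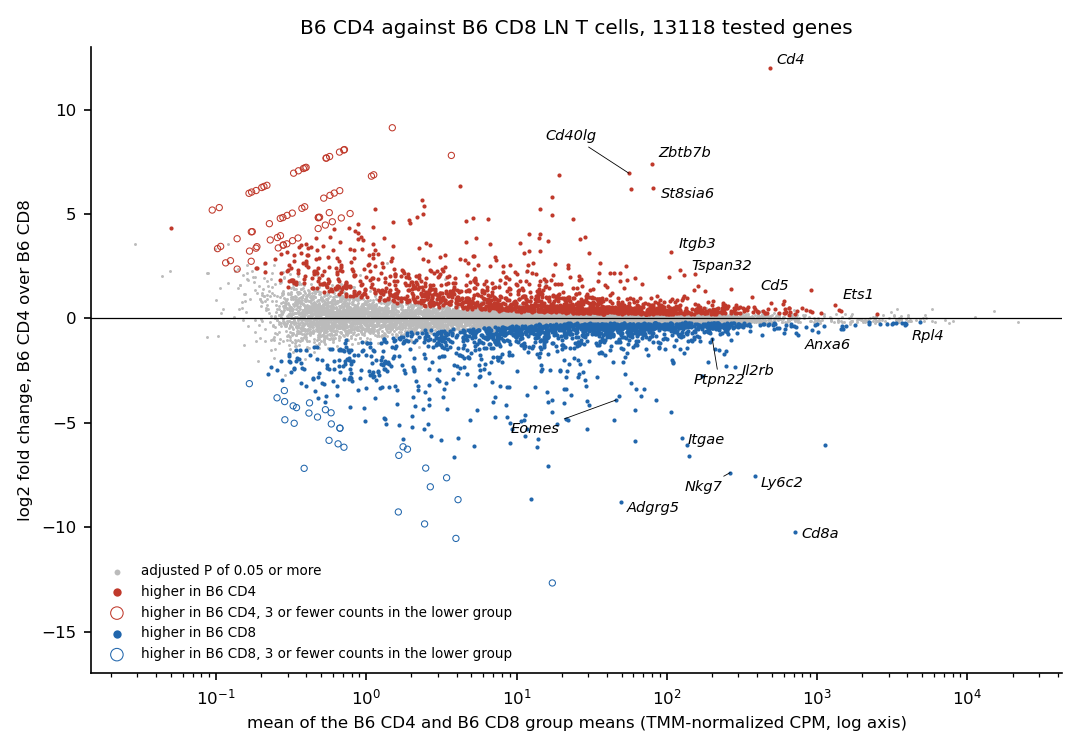
Log2 fold change between the B6 CD4+ and B6 CD8+ samples (vertical axis) against the mean CPM of both groups (horizontal log axis) for 13118 tested genes; colours mark the 1499 genes higher in CD4+ and the 1531 higher in CD8+ samples at an adjusted *P* under 0.05. Open circles have 3 or fewer counts in the lower group, so their fitted height is not a measured size; among genes of 100 CPM or more, most coloured points lie close to the zero line.

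Among transcription factors of lineage choice, a single gene was close to an on-off switch in counts per gene. Of 21 tested factors of this list, 9 were higher in CD4+ cells and 4 in CD8+ cells, with a median log2 fold change of 0.23. The counts of this and all later lists stand against 11.4% and 11.7% of all tested genes higher in CD4+ and in CD8+ cells. In every list, a gene with few counts in 1 group could pass the filter on low counts only through groups where it is higher. *Zbtb7b* (ENSMUSG00000028042.15, chr3:89377644-89394776), which encodes the helper factor ThPOK, stood at 159, 154 and 164 CPM in the CD4+ samples and at 1.19, 0.691 and 0.914 in the CD8+ samples. It was the most sharply divided factor, at a log2 fold change of 7.42 ± 0.197 (SE; adjusted *P* = 3.84e-13, edgeR quasi-likelihood, Benjamini-Hochberg), and its exons overlap the antisense RNA *Gm15417*. *Runx3* (ENSMUSG00000070691.10, chr4:135120652-135177990), the cytotoxic lineage factor, was far from such a switch in counts per gene. Such counts do not separate the forms of a gene, and the study follows the form Runx3d. *Runx3* stood at 67.3, 55.8 and 47.8 CPM in the CD4+ samples and 105, 102 and 97.5 in the CD8+ samples. All CD4+ samples lay below all CD8+ samples, by 1.78-fold on average, for a log2 fold change of −0.83 ± 0.138.

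The relative *Runx1*, which silences *Cd4* in early thymocytes, ran the other way, at 80.7, 82.3 and 67.3 CPM in the CD4+ samples and 30.5, 29.1 and 23.3 in the CD8+ samples (log2 fold change 1.47). Helper cells were also higher in *Gata3*, which acts upstream of ThPOK, with 31.7, 28.6 and 29.6 CPM against 21.6, 20.8 and 21.4. Some T cell identity factors with high levels in both groups were modestly higher in CD4+ cells. *Ets1*, needed for T cell survival and development, stood at 1458, 1702 and 1673 CPM in the CD4+ samples and 1038, 1045 and 1004 in the CD8+ samples. *Bcl11b*, which keeps cells committed to the T lineage, had a log2 fold change of 0.63 and *Tcf7*, which encodes TCF-1, of 0.39. *Tox2* was scarce, at 1.82, 1.21 and 1.40 CPM in the CD4+ samples and 0.0409, 0.109 and 0.0481 in the CD8+ samples. Higher in CD8+ cells were *Ikzf3*, the Ikaros family factor Aiolos, with 87.1, 93.2 and 78.7 CPM against 159, 157 and 165, and the E protein gene *Tcf12* (log2 fold change −0.53). Groups did not overlap for any factor given here with its sample values. This held for 39.0% of all tested genes, a share that stands beside all later statements of this kind. The largest adjusted *P* of these genes was 0.00507, for *Tcf7* (edgeR quasi-likelihood, Benjamini-Hochberg).

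Factors of effector, memory and quiescence programs differed in both directions. Of 32 tested, 7 were higher in CD4+ and 8 in CD8+ cells (median log2 fold change 0.11), or 5 in CD8+ cells without CD8+ replicate 1. *Eomes*, a T-box factor of memory-like CD8+ cells, stood at 5.41, 6.98 and 4.85 CPM in the CD4+ samples and 76.7, 69.4 and 113 in the CD8+ samples, a log2 fold change of −3.90 ± 0.219. The related *Tbx21*, which encodes T-bet, was at 0.955, 1.51 and 2.00 CPM against 31.0, 30.7 and 37.4. *Hopx*, an atypical homeodomain protein of effector cells, and *Stat4*, which carries IL-12 signals, had log2 fold changes of −2.08 and −1.06. On the helper side, *Maf*, a factor of follicular helper and IL-10 producing cells, stood at 9.05, 8.45 and 9.23 CPM in the CD4+ samples against 0.287, 0.218 and 0.577 in the CD8+ samples. *Irf4*, which rises with antigen receptor signals, was at 23.5, 24.6 and 33.4 CPM against 7.53, 7.71 and 10.7, with replicate 3 the highest of each group. *Prdm1*, which encodes Blimp-1, was higher in CD4+ cells with a log2 fold change of 2.48, as was its antagonist *Bcl6* with 0.74. So were, by less than 2-fold, the quiescence factors *Bach2* (0.56) and *Foxo1* (0.45). *Klf2*, another quiescence factor, had a log2 fold change of −0.12 and did not pass the test. No adjusted *P* of the genes that passed was above 0.000613, for *Bach2* (edgeR quasi-likelihood, Benjamini-Hochberg).

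In the lists of factors that respond to signals and of chromatin regulators single genes differed, against 23.1% of all tested genes. In the AP-1 and NFAT list, 2 of 9 tested genes were higher in CD4+ cells and 1 in CD8+ cells; the former count was 1 when any B6 sample but CD8+ replicate 1 was left out. *Fos*, an immediate early gene, was higher in CD4+ cells (log2 fold change 0.92) and its relative *Fosl2* in CD8+ cells (−0.96). Among 32 chromatin regulators 12.5% differed, 2 higher in CD4+ cells and 2 in CD8+ cells. These counts were 1 toward CD4+ cells without CD8+ replicate 2 and 4 toward CD8+ cells without CD4+ replicate 1. The clearest case was *Hdac7*, a class IIa deacetylase that holds cytotoxic gene expression in check, at 107, 102 and 96.7 CPM in the CD4+ samples and 209.8, 202 and 193 in the CD8+ samples. *Hdac4* of the same class followed it (−0.73), and the histone demethylase gene *Kdm5b* was higher in CD4+ cells (0.51). Adjusted *P* values were at most 0.00269, for *Fos* (edgeR quasi-likelihood, Benjamini-Hochberg).

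Genes of helper costimulation leaned to CD4+ cells. There, 10 of 20 tested members were higher and 5 were higher in CD8+ cells (median log2 fold change 0.35). *Cd40lg* (ENSMUSG00000031132.1, chrX:57212143-57224042) encodes the ligand with which helper cells license B cells and dendritic cells. With no treatment in the labels, it stood at 108, 109.8 and 115 CPM in the CD4+ samples and 0.983, 0.982 and 0.674 in the CD8+ samples. That is a log2 fold change of 6.95 ± 0.124 (adjusted *P* = 2.85e-15, edgeR quasi-likelihood, Benjamini-Hochberg), and replicates of a group differed far less than groups. *Cd28*, the main costimulatory receptor of naive T cells, stood at 48.0, 46.0 and 47.7 CPM against 15.7, 17.6 and 20.3, so CD8+ cells held clearly less of its RNA without losing it. *Cd200*, *Tnfsf11* (RANK ligand) and *Ctla4* were higher in CD4+ cells by log2 fold changes of 2.15, 2.85 and 2.97. *Tnfrsf4*, which encodes OX40, was at 24.1, 30.5 and 47.7 CPM in the CD4+ samples, highest in replicate 3, and at 0.655, 0.400 and 0.770 in the CD8+ samples. Higher in CD8+ cells were *Tnfsf14*, which encodes LIGHT (−2.17), *Cd226*, an adhesion receptor of cytotoxic cells (−1.74), and *Ly9* (−0.44). *Cd2* did not differ by the test.

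By number of genes, inhibitory receptors leaned toward CD4+ cells, with 5 of 12 tested higher there and 2 higher in CD8+ cells (median log2 fold change 0.53). Their summed level ran the other way. It was 765, 797 and 759 CPM in the CD4+ samples and 859, 889 and 838 in the CD8+ samples, with *Vsir* the most abundant in both. *Pdcd1*, which encodes PD-1, was low but distinct, at 8.64, 10.4 and 14.8 CPM in the CD4+ samples and 1.92, 1.82 and 2.16 in the CD8+ samples. *Klrg1* and *Cd200r1* had the largest log2 fold changes toward CD4+ cells (5.22 and 3.58), and also higher there were *Lag3*, a ligand-binding relative of CD4 (1.82), and *Btla* (0.86). The exceptions were *Cd160*, a receptor of cytotoxic and intraepithelial lymphocytes (−3.89), and *Cd96* (−0.44), both higher in CD8+ cells. These genes had adjusted *P* values of at most 0.000125, for *Cd96* (edgeR quasi-likelihood, Benjamini-Hochberg).

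CD8+ cells carried RNA of part of the cytotoxic equipment, with no treatment in the labels. Of 22 tested granule and effector genes, 12 were higher in CD8+ cells and 3 in CD4+ cells, with a median log2 fold change of −0.90. *Nkg7* (ENSMUSG00000004612.9), a granule membrane protein needed for release of cytotoxic granules, stood at 2.68, 2.03 and 4.68 CPM in the CD4+ samples and 494, 532 and 549.7 in the CD8+ samples, a log2 fold change of −7.38 ± 0.204 (adjusted *P* = 6.07e-13, edgeR quasi-likelihood, Benjamini-Hochberg). The chemokine gene *Ccl5*, stored as RNA by memory-like CD8+ cells, was at 1.41, 2.11 and 2.76 CPM against 126, 141 and 97.8. Granzyme M, encoded by *Gzmm*, was at 0.364, 0.517 and 0.255 CPM against 25.5, 27.4 and 28.4. In each of these genes every CD8+ sample lay far above every CD4+ sample. *Cst7*, an inhibitor of the proteases that mature granzymes, and *Xcl1*, a chemokine that draws cross-presenting dendritic cells, followed with log2 fold changes of −3.40 and −5.62. For *Ccl4*, with 1 to 3 counts over the CD4+ samples, the ratio was 78.7-fold (95% counting interval 26.6 to 384). Not all effector genes went along. *Fasl*, the death ligand, was higher in CD4+ cells, with 7.64, 7.59 and 7.44 CPM against 2.09, 1.71 and 1.59, and so was *Gzmc* (log2 fold change 2.66), while *Srgn*, the granule proteoglycan, did not differ (−0.11, adjusted *P* = 0.372, edgeR quasi-likelihood, Benjamini-Hochberg). In pooled cells, a smaller number of cells of a type and less RNA per cell cannot be told apart, here or below.

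Killer lectin-like receptors, the receptors of NK cells for MHC class I and its relatives, were mostly called toward CD8+ cells where they could be tested. Of 30 members, 16 had enough counts to be tested. Of these, 15 were higher in CD8+ cells, with a median log2 fold change of −4.70, and *Klrg1* alone was higher in CD4+ cells. *Klrd1*, which encodes CD94, stood at 10.7, 10.6 and 10.4 CPM in the CD4+ samples and 139, 158 and 178 in the CD8+ samples, so it was present in both groups. Its partner *Klrc1*, which encodes NKG2A, was found almost only in CD8+ cells, at 7.57, 8.14 and 7.26 CPM there against 0.0455, 0.0431 and 0.128. *Klrk1*, which encodes the stress receptor NKG2D, had a log2 fold change of −4.35. *Klra6*, a Ly49 gene, had 0 counts in the 3 CD4+ samples and 7.16, 7.45 and 9.09 CPM in the CD8+ samples. *Klre1* had 1 to 3 counts over the CD4+ samples and 5.65, 6.98 and 7.84 CPM in the CD8+ samples, a ratio of 233 (95% counting interval 64.1 to 1928). Most members have few counts in CD4+ cells, and such members could pass the filter only through groups where they are higher. The filter therefore favours a count toward CD8+ cells, and that count is no test of the list. With a filter at a mean of 1 CPM, 9 members higher in CD8+ cells remained in the test. The Ly49 genes are near copies of each other, so reads may be shared among them.

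Cytokine receptors showed a division of cytokines rather than a common direction. In the common γ-chain, IL-6 and related list, 5 of 20 tested genes were higher in CD4+ cells and 8 in CD8+ cells (median log2 fold change −0.11). The IL-2 receptor chains parted ways. *Il2ra*, the high-affinity chain CD25, stood at 27.6, 30.0 and 43.2 CPM in the CD4+ samples and 0.942, 1.38 and 0.914 in the CD8+ samples, while *Il2rb*, the signalling chain shared with IL-15, was at 83.5, 91.0 and 111 CPM against 473, 454 and 493. The shared *Il2rg* chain had a log2 fold change of −0.06 and did not pass the test. *Il7r*, the survival receptor of naive cells, was alike in both, at 371, 368 and 285 CPM and 378, 401 and 362 (log2 fold change −0.16, adjusted *P* = 0.390, edgeR quasi-likelihood, Benjamini-Hochberg). The interferon-γ receptor chains were also opposed. *Ifngr1*, which binds the ligand, stood at 96.9, 94.0 and 94.9 CPM in the CD4+ samples and 193, 189.7 and 199.5 in the CD8+ samples, and *Ifngr2*, the signalling chain, was higher in CD4+ cells (log2 fold change 0.94). Receptors for IL-12 (*Il12rb1* −1.67, *Il12rb2* −2.84), IL-15 (*Il15ra* −0.83) and IL-10 (*Il10rb* −1.08) were higher in CD8+ cells. Receptors for IL-4 (*Il4ra* 0.49), IL-6 (*Il6ra* 0.59) and IL-9 (*Il9r* 3.88) were higher in CD4+ cells.

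Receptors of the IL-1 and IL-17 families followed the same line, with 4 of 9 tested genes higher in CD4+ cells and 2 in CD8+ cells. *Il17rb*, which binds IL-25, had 0 counts in the CD8+ samples and was higher in CD4+ cells by at least 6.35-fold, and *Il1rl2*, the IL-36 receptor, had a log2 fold change of 1.04. Both chains of the IL-18 receptor were higher in CD8+ cells, *Il18r1* with −1.09 and *Il18rap* with −5.29. The TGF-β components that passed the test had a single direction: 5 of 17 tested genes were higher in CD4+ cells and 0 in CD8+ cells (median log2 fold change 0.21). *Tgfbr3*, the co-receptor betaglycan, stood at 79.0, 81.3 and 68.2 CPM in the CD4+ samples and 24.1, 23.1 and 18.1 in the CD8+ samples. The signalling receptors *Tgfbr2* (0.37) and *Acvr1b* (0.52) and the SMAD repressor *Ski* (0.60) were modestly higher. Across these genes the largest adjusted *P* was 0.00286, for *Acvr1b* (edgeR quasi-likelihood, Benjamini-Hochberg).

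Downstream of these receptors, 5 of 22 JAK, STAT and SOCS genes were higher in CD4+ cells and 4 in CD8+ cells (median log2 fold change 0.02). The count toward CD8+ cells was 2 with library totals, without CD4+ replicate 3 or without CD8+ replicate 1. Of feedback genes that STAT5 induces, *Socs2* (log2 fold change 3.85), *Cish* (1.79) and *Pim1* (0.76) were higher in CD4+ cells. *Pim2*, a survival kinase of the same family, ran the other way, at 63.5, 58.1 and 68.0 CPM in the CD4+ samples and 163, 151 and 163 in the CD8+ samples. *Socs3* (0.63) and *Stat5b* (0.39) were higher in CD4+ cells and *Socs5* (−0.60) in CD8+ cells. Their adjusted *P* values reached 0.00683, for *Socs3* (edgeR quasi-likelihood, Benjamini-Hochberg).

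Homing receptors divided into equal camps, with 8 of 19 tested chemokine and migration receptors higher in CD4+ cells and 8 in CD8+ cells. The receptors that keep naive cells moving through LN were highly expressed in both groups and modestly higher in CD4+ cells. *Ccr7*, which brings cells into the T zone, stood at 736, 784 and 766 CPM in the CD4+ samples and 568, 543 and 503 in the CD8+ samples (log2 fold change 0.50 ± 0.0658). *S1pr1*, with which they leave, was at 819.6, 851 and 788 CPM against 664, 675 and 595. Neither pair of groups overlapped. CD4+ cells were also higher in *Gpr183*, an oxysterol receptor that guides cells to the follicle edge (1.08), in *Ptger4* (0.83), and in *Ccr4* (2.67), *Ccr6* (2.12) and *Ccr8* (4.83), receptors of differentiated helper and regulatory cells. Other receptors were higher in CD8+ cells. *Cxcr3* was at 3.91, 6.16 and 6.68 CPM in the CD4+ samples and 104, 112 and 135 in the CD8+ samples. The gut homing receptor *Ccr9* was at 5.73, 7.80 and 13.9 CPM against 202, 215 and 193, and *Cxcr6* at 2.64, 2.97 and 3.02 against 260.1, 279 and 289.8. In all 3 the groups lay far apart. *Ccr2* (−2.07) followed. The largest adjusted *P* among the receptors that differed was 0.00339, for *S1pr1* (edgeR quasi-likelihood, Benjamini-Hochberg).

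Adhesion genes included a pair of integrin chains with opposite lineage bias. Of 20 tested, 5 were higher in CD4+ cells and 7 in CD8+ cells (median log2 fold change 0.00). *Itgb3* (ENSMUSG00000020689.4), the β3 integrin chain, stood at 186, 173 and 217 CPM in the CD4+ samples and 20.3, 19.4 and 23.8 in the CD8+ samples, a log2 fold change of 3.19 ± 0.103. *Itgae* (ENSMUSG00000005947.11), the αE chain CD103 that binds epithelial E-cadherin, stood at 2.91, 5.09 and 5.87 CPM against 234, 239.8 and 264 (−5.73 ± 0.163). Its partner chain *Itgb7* was alike, with a log2 fold change of 0.03. *Cd44*, a marker of the gate in the study's methods, had a log2 fold change of −0.54, with 33.4, 37.5 and 34.2 CPM against 42.4, 49.7 and 61.0, so neither group lacked its RNA. The tetraspanin genes *Cd81* (3.84) and *Cd9* (1.84) and the integrin gene *Itga6* (0.98) were higher in CD4+ cells, and *Icam1* (−1.44) and *Selplg*, the P-selectin ligand (−0.67), in CD8+ cells. All these calls had adjusted *P* values of at most 0.00304, for *Cd44* (edgeR quasi-likelihood, Benjamini-Hochberg).

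**Figure D2:**
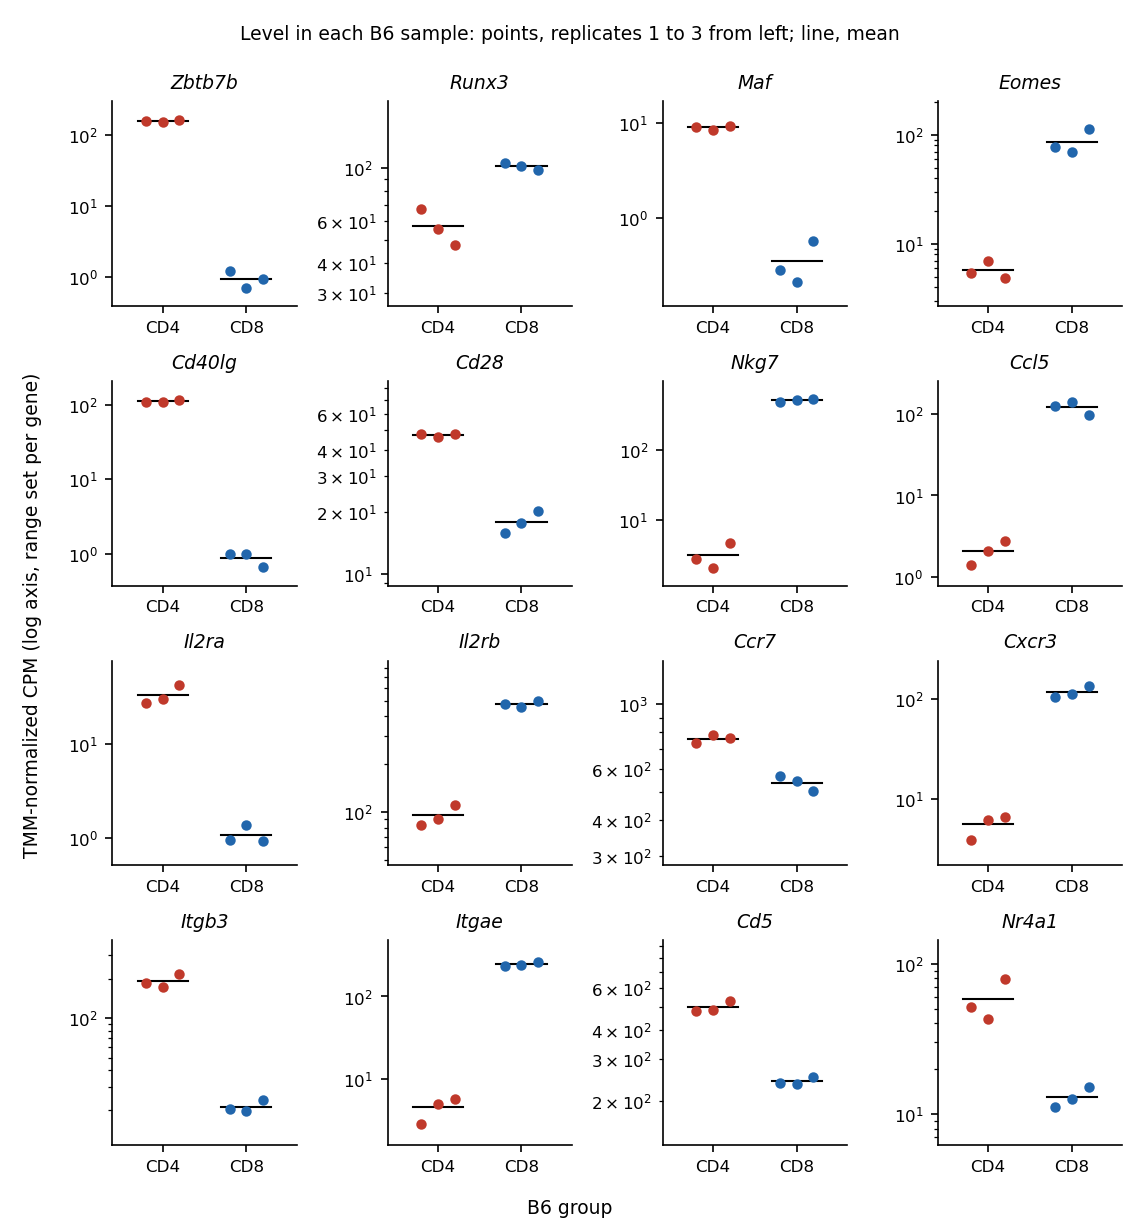
CPM of 16 genes in each B6 sample (vertical log axis, range set for each gene; points are replicates 1 to 3 from left, lines are means, red CD4+ and blue CD8+). No gene shown has overlapping groups, which held for 39.0% of all tested genes. Distances run from *Ccr7* at 736 to 784 against 503 to 568 CPM up to *Nkg7* at 2.03 to 4.68 against 494 to 550 CPM.

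In the machinery that reads the T cell receptor (TCR), parts of the receptor, adaptors and regulators differed between lineages. Of 42 tested genes of the CD3 complex and proximal signalling, 9 were higher in CD4+ cells and 7 in CD8+ cells, and the median log2 fold change was 0.00. Upper quartile scaling gave 14 toward CD4+ cells. The kinase *Lck*, which both co-receptors bind, did not differ, with 1033, 1101 and 968 CPM in the CD4+ samples and 1043, 1059.5 and 908 in the CD8+ samples (log2 fold change 0.04, adjusted *P* = 0.770, edgeR quasi-likelihood, Benjamini-Hochberg). *Trat1*, a transmembrane adaptor that stabilizes the TCR complex, was the strongest gene on the helper side, at 74.0, 86.4 and 79.4 CPM against 16.1, 18.7 and 17.8. *Rasgrp1*, which couples the TCR to Ras, was at 389, 365 and 373 CPM against 269, 265 and 276, and *Trac*, the TCRα constant gene, at 969.8, 960.3 and 966 CPM against 720.1, 733 and 719. Their groups did not overlap. *Cd247* (0.54), *Sit1* (0.52) and *Tespa1* (0.44) also leaned to CD4+ cells. Phosphatase and adaptor genes were among those higher in CD8+ cells. The phosphatase gene *Ptpn22*, which opposes Lck and ZAP-70, stood at 139.8, 147 and 121 CPM in the CD4+ samples and 271, 269.5 and 255 in the CD8+ samples. The phosphatase gene *Ptpn6* (SHP-1) had a log2 fold change of −0.59, the adaptor genes *Sla2* of −0.87 and *Sla* of −0.46, and *Themis*, which tunes TCR signals in thymocytes, of −0.49. No adjusted *P* among the genes that differed exceeded 0.0119, for *Trac* (edgeR quasi-likelihood, Benjamini-Hochberg).

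Genes whose level follows the strength of TCR signals were mostly higher in CD4+ cells, 7 of 13 against 2 in CD8+ cells, with a median log2 fold change of 0.43. The count toward CD8+ cells was 1 under each other filter on low counts and when any B6 sample but CD8+ replicate 1 was left out. *Cd5* (ENSMUSG00000024669.7), a surface brake set by self reactivity, stood at 478, 483 and 529 CPM in the CD4+ samples and 237, 235 and 252 in the CD8+ samples (log2 fold change 1.04 ± 0.0887, adjusted *P* = 3.03e-07, edgeR quasi-likelihood, Benjamini-Hochberg). *Nr4a1*, which encodes Nur77, varied more between replicates, at 51.2, 42.8 and 79.4 CPM against 11.2, 12.7 and 15.2, but its groups did not overlap. *Cd6*, a relative of *Cd5*, was at 385, 383 and 389 CPM against 292, 282 and 283. *Nr4a3* (1.15), *Nfkbid* (0.82) and *Egr1* (0.79) moved the same way, whereas *Myc* was higher in CD8+ cells (−0.50).

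In signalling below the receptor single genes differed, against 23.1% of all tested genes. In the ERK feedback list 5 of 19 tested genes were higher in CD4+ cells and 2 in CD8+ cells, led by *Spry1* (log2 fold change 1.42), *Dusp1* (1.35) and *Dusp5* (1.19). The count toward CD8+ cells was 0 without CD4+ replicate 2, CD4+ replicate 3 or CD8+ replicate 2, and 1 without CD8+ replicate 1. Among NF-κB genes 4 of 19 were higher in CD4+ cells and 2 in CD8+ cells, with *Birc3* (0.39) and *Traf1* (−0.74) on opposite sides. These counts were 2 and 1 without CD4+ replicate 3 or CD8+ replicate 1, and the latter was also 1 without CD8+ replicate 2 or with library totals. In the PI3K, mTOR and nutrient sensing list the counts were 5 and 2 of 27, or 3 and 4 without CD4+ replicate 1, and DESeq2 and limma-voom gave 4 toward CD8+ cells. Here the lymphocyte PI3K subunit *Pik3cd* was higher in CD8+ cells, at 478, 430.1 and 373 CPM against 644, 613 and 564, and *Pik3cb*, the more widely expressed form, was higher in CD4+ cells (0.56). *Rptor*, which defines mTOR complex 1, was higher in CD8+ cells (−0.44) and the kinase gene *Pdk1* (0.51) and the stress sensor *Sesn1* (0.38) in CD4+ cells. The median log2 fold changes of the 3 lists lay within 0.05 of 0. Adjusted *P* values of the genes called here reached 0.00458, for *Pik3cb* (edgeR quasi-likelihood, Benjamini-Hochberg).

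Cyclic AMP and adenosine genes differed often and in both directions, 7 of 25 higher in CD4+ and 9 in CD8+ cells (median log2 fold change −0.18). Without CD8+ replicate 1 the count toward CD4+ cells was 4. *Ptgir* (ENSMUSG00000043017.9, chr7:16906490-16910905), the prostacyclin receptor, raises cAMP. It was at 5.59, 7.67 and 8.76 CPM in the CD4+ samples and had 1 to 3 counts over the CD8+ samples, a ratio of 268 (95% counting interval 73.9 to 2222). Adenylyl cyclase genes differed in both directions, with *Adcy9* (3.28) and *Adcy6* (1.47) higher in CD4+ cells and *Adcy7* (−0.65) and *Adcy3* (−0.82) in CD8+ cells. The cAMP-degrading enzyme *Pde7a* stood at 34.4, 43.8 and 37.3 CPM in the CD4+ samples and 100.1, 117 and 107 in the CD8+ samples, and *Pde4d* leaned the other way (0.48). *Dpp4*, the peptidase CD26 that anchors adenosine deaminase, was at 74.8, 70.1 and 76.0 CPM against 196, 196 and 203, and *Nt5e*, the adenosine-forming CD73, had a log2 fold change of −0.75. The kinase subunits *Prkacb* (−0.27) and *Prkar1a* (−0.23) were slightly higher in CD8+ cells.

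G protein regulators split 5 to 4 of 20. *Rgs16* (1.25), *Rgs2* (0.96) and *Rgs1* (0.93), which dampen chemokine signals, were higher in CD4+ cells, and *Rgs3* (−0.76) and the α subunit gene *Gna15* (−2.23) in CD8+ cells. Ion channels and calcium pumps split 6 to 7 of 26. The potassium channel gene *Kcna2* stood at 5.05, 3.28 and 2.98 CPM in the CD4+ samples and 40.0, 40.5 and 35.6 in the CD8+ samples, and *Kcna3*, the better known lymphocyte channel Kv1.3, was also higher in CD8+ cells (−0.85). The calcium-activated channel *Kcnn4* was higher in CD4+ cells, at 213, 209 and 204 CPM against 160.4, 152 and 126. So was the ATP-gated channel *P2rx7*, at 21.2, 22.4 and 24.8 CPM against 9.17, 7.93 and 7.17. The store-operated calcium channels parted, *Orai1* (0.62) toward CD4+ and *Orai3* (−0.50) toward CD8+ cells. The calcium pump *Atp2b4* was higher in CD8+ cells (−1.44). All calls given for regulators and channels had an adjusted *P* of at most 0.00871, for *Rgs16* (edgeR quasi-likelihood, Benjamini-Hochberg).

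Survival genes leaned apart as well. Of 15 tested genes of the BCL2 family, 2 were higher in CD4+ cells and 4 in CD8+ cells. *Bcl2*, the long-term survival factor, stood at 114, 111 and 103 CPM in the CD4+ samples and 163, 167 and 169.6 in the CD8+ samples, and *Mcl1*, its short-lived relative, at 448, 416 and 486 CPM against 362, 344 and 389. Neither gene had overlapping groups, though for *Mcl1* they came close. The death-promoting genes *Pmaip1* (−2.46), *Bid* (−0.95) and *Bbc3* (−0.88) were higher in CD8+ cells, and *Bcl2a1d* (1.22) in CD4+ cells. Of 14 tested TNF receptors, 3 were higher in CD4+ and 3 in CD8+ cells, with *Tnfrsf25*, or DR3 (1.85), and *Tnfrsf10b*, the TRAIL receptor (−0.98), at the ends. GIMAP genes, GTPases that keep naive lymphocytes alive, were higher in CD4+ cells in 5 of 9 cases, as for *Gimap3* (0.31). The exception was *Gimap5*, at 56.6, 61.6 and 62.8 CPM in the CD4+ samples and 93.7, 90.4 and 89.8 in the CD8+ samples, though exons of this gene overlap a neighbour's. The largest adjusted *P* in this group was 0.00630, for *Mcl1* (edgeR quasi-likelihood, Benjamini-Hochberg).

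In the Ly6 family the lineages used neighbouring copies of a gene. *Ly6c1* (ENSMUSG00000079018.10, chr15:75044018-75048830) stood at 104, 126 and 109.9 CPM in the CD4+ samples and 1.47, 1.38 and 1.88 in the CD8+ samples. *Ly6c2* (ENSMUSG00000022584.14, chr15:75108158-75111970), 59327 bases away, stood at 3.55, 3.92 and 4.64 CPM against 650.4, 714 and 930.1. Antibodies to Ly6C bind the products of both. The gene bodies are near copies and may share reads, yet the values moved in opposite directions, by log2 fold changes of 6.18 ± 0.209 and −7.56 ± 0.170 (adjusted *P* = 5.56e-12 and 4.21e-14, edgeR quasi-likelihood, Benjamini-Hochberg). *Ly6a*, which encodes Sca-1, was at 248, 257 and 249.9 CPM in the CD4+ samples and 51.3, 52.4 and 66.7 in the CD8+ samples, and *Ly6e* did not differ (0.05). In all, 3 of 7 tested family members were higher in CD4+ cells and 2 in CD8+ cells, the latter 1 with a filter at a mean of 1 CPM.

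Other neighbouring genes differed in opposite or in like directions, in sets picked after the values were seen. On chromosome 1, *Il1rl2* (log2 fold change 1.04) lies among IL-1 receptor genes that were higher in CD4+ cells, and *Il18r1* (−1.09), which lies 136 bases from *Il1rl1*, and *Il18rap* (−5.29) were higher in CD8+ cells. On chromosome 9, *Ccr9* lies 22144 bases from *Cxcr6*, which lies 290189 bases from *Ccr2*, and all were higher in CD8+ cells. On chromosome 6, *Lag3* (1.82) lies 16139 bases from *Cd4*, and both were higher in CD4+ cells.

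Enzymes that build surface glycans differed in a large share of cases, 10 of 33 higher in CD4+ and 10 in CD8+ cells. *St8sia6* (ENSMUSG00000003418.11, chr2:13651021-13794064), which makes α2,8-linked disialic acid, was nearly a lineage switch, at 165, 156 and 161 CPM in the CD4+ samples and 2.01, 2.11 and 2.16 in the CD8+ samples. Its log2 fold change was 6.26 ± 0.128 (adjusted *P* = 1.42e-14, edgeR quasi-likelihood, Benjamini-Hochberg), and its exons overlap the antisense RNA *Gm37126*. *St3gal2* was at 20.8, 21.7 and 16.1 CPM against 1.68, 1.89 and 1.20. *St8sia1*, the GD3 synthase, stood at 184, 173 and 158 CPM against 95.8, 91.6 and 73.0, while *B4galnt1*, which takes gangliosides down the competing branch, stood at 553, 542 and 543 CPM against 935, 934 and 823. Ganglioside enzymes were therefore expressed in both lineages with opposite bias. *St3gal5* (2.90) and *Gcnt1* (2.25) were also higher in CD4+ cells, and *St3gal6* (−1.59), *Chst15* (−1.29) and *St6galnac4* (−1.04) in CD8+ cells.

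Metabolic genes gave differences of various sizes, and in some pathways most calls had the same direction. Glycolysis was mixed, 7 to 6 of 24 genes, with 4 toward CD4+ cells without CD8+ replicate 2. The lactate dehydrogenase subunit *Ldhb*, which favours pyruvate formation, stood at 42.5, 43.8 and 40.6 CPM in the CD4+ samples and 13.3, 12.8 and 7.79 in the CD8+ samples. *Pkm*, the pyruvate kinase of proliferating cells, was at 692, 720.0 and 737 CPM against 500.4, 498 and 550.1. *Aldoc* (1.77) and *Pfkfb4* (1.36) were higher in CD4+ cells. The transporters *Slc16a1* for lactate (−0.82) and *Slc2a3* for glucose (−0.42) and the enzymes *Pfkp* (−0.44) and *Pgam1* (−0.38) were higher in CD8+ cells. The abundant *Eno1* and *Gapdh* did not differ (0.09 and −0.12). The other calls in this pathway had adjusted *P* values up to 0.00519, for *Pgam1* (edgeR quasi-likelihood, Benjamini-Hochberg).

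In the list of pentose phosphate and one-carbon metabolism, which feed nucleotide synthesis, 6 of 23 genes were higher in CD8+ cells and 2 in CD4+ cells (median log2 fold change −0.06). Within the mitochondrial folate pathway consecutive enzymes were opposed: *Shmt2* stood at 95.6, 89.0 and 90.8 CPM in the CD4+ samples and 161, 166 and 142 in the CD8+ samples, and *Mthfd2* at 62.3, 61.4 and 55.9 against 36.1, 36.3 and 31.1. The 6 values of each gene fell into separate groups. *Mthfd1* (−0.48), *Mthfd1l* (−0.47), the serine synthesis gene *Phgdh* (−0.40), *Ahcy* (−0.41) and the transketolase gene *Tkt* (−0.41) were higher in CD8+ cells. The tricarboxylic acid cycle was close to balance, with 3 and 3 of 32 genes, *Idh1* (0.80) and *Aco1* (0.36) toward CD4+ and *Idh3a* (−0.41) and *Pdk3* (−0.53) toward CD8+ cells. Upper quartile scaling, library totals and DESeq2 each gave 5 toward CD4+ cells. In the nuclear-encoded respiratory chain 72 of 75 genes did not pass the test, 3 were higher in CD8+ cells and 0 in CD4+ cells, with 2 in CD4+ cells without CD4+ replicate 1 and 1 with upper quartile scaling, library totals or DESeq2. None of 19 tested transcripts of the mitochondrial genome passed, though with the B6 samples alone in the fit 6 of them were higher in CD4+ cells, without a filter on low counts 7, and with library totals or a replicate block 1.

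Sterol genes were higher in CD4+ cells in 11 of 30 cases and in CD8+ cells in 1, or 2 without a filter on low counts (median log2 fold change 0.21). *Sqle*, a rate-limiting step of cholesterol synthesis, stood at 15.6, 14.8 and 15.0 CPM in the CD4+ samples and 4.67, 5.56 and 4.09 in the CD8+ samples. Further steps moved the same way, as *Cyp51* (0.96) and *Sc5d* (0.62), with their regulator *Srebf2* (0.45), while the cholesterol exporter *Abca1* was higher in CD8+ cells (−0.49). Fatty acid genes were mixed, 5 to 8 of 35. *Acaca*, which starts fatty acid synthesis, and *Elovl6*, which lengthens the chains (−0.49), were higher in CD8+ cells. The ceramide synthase gene *Cers6* stood at 31.2, 28.5 and 25.3 CPM in the CD4+ samples and 7.53, 5.78 and 6.78 in the CD8+ samples. *Acsl3* (1.64) and the lysosomal lipase gene *Lipa* (0.64) were higher in CD4+ cells, and *Smpdl3b* (−2.18), *Elovl7* (−1.26) and *Acsbg1* (−1.17) in CD8+ cells. Among lipid genes named, the largest adjusted *P* was 0.00782, for *Elovl6* (edgeR quasi-likelihood, Benjamini-Hochberg).

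Transporters leaned to CD8+ cells, 7 of 24 against 2, or against 1 without CD4+ replicate 3, CD8+ replicate 1 or CD8+ replicate 3. *Slc6a19*, a neutral amino acid transporter best known from gut and kidney, stood at 0.182, 0.216 and 0.298 CPM in the CD4+ samples and 37.9, 40.5 and 17.9 in the CD8+ samples, with CD8+ replicate 3 well below its partners but far above every CD4+ sample. *Slc43a2* (−0.71), *Slc38a1* (−0.43), the metal transporter *Slc11a2* (−1.12) and the efflux pumps *Abcb1a* (−2.43) and *Abcb1b* (−0.93) were higher in CD8+ cells, and *Abcg2* (0.95) in CD4+ cells. Outside the lists, *Ass1*, which makes arginine from citrulline, was at 243, 251 and 236 CPM in the CD4+ samples and 86.7, 87.2 and 71.6 in the CD8+ samples. The groups did not overlap.

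Ribosomal protein genes, the most counted class, differed little. Of 99 tested genes of the list, 11 were higher in CD8+ cells and 1 in CD4+ cells, with a median log2 fold change of −0.11. The list also takes in S6 kinases; with core ribosomal proteins alone, a trim chosen after seeing the data, the counts were 10 and 0 of 77. *Rpl4* stood at 3348, 3656 and 3249 CPM in the CD4+ samples and 4263, 4361 and 4248 in the CD8+ samples (log2 fold change −0.33, adjusted *P* = 0.00264, edgeR quasi-likelihood, Benjamini-Hochberg), and *Rpl23a* had a log2 fold change of −0.28. *Rplp0* did not pass the test (−0.11). The count toward CD8+ cells depended on the fit, with 4 genes after upper quartile scaling, 5 with library totals, 3 without CD4+ replicate 1 or CD8+ replicate 2, 4 without CD4+ replicate 3 and 7 without CD8+ replicate 1 or 3. For core proteins these numbers were 3, 4, 2, 3 and 6, and the count toward CD4+ cells for the list was 0 without CD4+ replicate 1 or 2 or CD8+ replicate 2 or 3.

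Cell cycle genes leaned to CD8+ cells, 3 of 35 higher in CD4+ and 8 in CD8+ cells. The cycle inhibitor *Cdkn1b* (p27) stood at 98.8, 104 and 95.9 CPM in the CD4+ samples and 73.0, 72.7 and 74.6 in the CD8+ samples. Its target *Cdk2* was also higher in CD4+ cells (1.01). The cyclin gene *Ccnd2* was higher in CD8+ cells, at 489.8, 437 and 439.5 CPM against 566, 555 and 571, as were its partner *Cdk6* (−1.26), *Ccne1* (−1.03) and the replication licensing genes *Mcm3* (−0.43) and *Mcm6* (−0.60). No adjusted *P* of these exceeded 0.00545, for *Mcm3* (edgeR quasi-likelihood, Benjamini-Hochberg).

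Interferon-stimulated genes did not move as a block. Of 38 tested, 8 were higher in CD4+ cells and 9 in CD8+ cells (median log2 fold change −0.11). The Schlafen genes *Slfn2*, *Slfn1* and *Slfn5* were higher in CD4+ cells: *Slfn2*, which acts in T cell quiescence, stood at 568, 623 and 658 CPM in the CD4+ samples and 364, 341 and 419 in the CD8+ samples, *Slfn1* had a log2 fold change of 0.64 and *Slfn5* of 0.90. *Ifi44* (2.18) and *Ifit2* (0.76) joined them. The guanylate-binding protein genes *Gbp3* (−0.84), *Gbp7* (−0.73) and *Gbp2* (−0.57) were higher in CD8+ cells, as were *Oas3* (−1.36) and the antiviral GTPase gene *Mx1* (−2.52). The genes of MHC class I and antigen processing that passed had a single direction: 8 of 22 tested genes were higher in CD8+ cells and 0 in CD4+ cells (median log2 fold change −0.15). *Tapbpl*, a peptide editor, stood at 57.6, 52.6 and 56.1 CPM in the CD4+ samples and 125, 126 and 107 in the CD8+ samples, and *Nlrc5*, the transactivator of class I genes, at 97.8, 90.6 and 83.6 CPM against 143, 141 and 135. The peptidase gene *Erap1* (−0.46), *Psme1* (−0.42) and the nonclassical *H2-Q7* (−0.62) followed, but the main chains *H2-K1* (0.10) and *B2m* (−0.13) did not pass the test. The highest adjusted *P* among the genes called was 0.000982, for *H2-Q7* (edgeR quasi-likelihood, Benjamini-Hochberg).

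Cytoskeletal genes split 5 to 5 of 33, with 2 toward CD4+ cells when CD4+ replicate 3 or CD8+ replicate 2 was left out and 9 with library totals. *Myo1f*, a myosin of immune cell motility, stood at 2.55, 3.06 and 3.32 CPM in the CD4+ samples and 74.6, 81.3 and 102 in the CD8+ samples. In contrast *Myo10*, a myosin of filopodia outside the list, was found in CD4+ cells, at 36.8, 27.5 and 19.4 CPM against 0.778, 0.582 and 0.866, with replicate 1 the highest. *Capg*, which caps actin filaments, and *Tubb2a* (1.17) were higher in CD4+ cells and *Dock10* (−0.69), *Tubb5* (−0.55) and *Arpc1b* (−0.32) in CD8+ cells. In the S100, annexin and galectin list 4 and 5 of 21 differed. *Anxa6*, a calcium-dependent membrane binder, stood at 557, 545 and 563 CPM against 946, 931 and 965, and *Lgals3* (3.04) and *S100a4* (2.34) were higher in CD4+ cells and *S100a11* (−0.96) in CD8+ cells.

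A group of highly expressed genes set the lineages apart by less than 2-fold with little spread. *Cytip*, which restrains integrin adhesion, led on the CD4+ side, at 751, 764 and 799.6 CPM against 434, 419 and 442 (log2 fold change 0.84 ± 0.0676, adjusted *P* = 1.68e-07, edgeR quasi-likelihood, Benjamini-Hochberg). Others on this side were *Ndrg3*, at 263, 266 and 245 CPM against 146, 155 and 134, and *Kbtbd11*, at 811, 738 and 660.5 against 483, 464 and 432. In each, the lowest CD4+ sample lay well above the highest CD8+ sample. *Pecam1*, an adhesion molecule of naive cells, was at 199, 206 and 167 CPM against 125, 128 and 104, and *Itm2c* and *Ttyh3* had log2 fold changes of 0.67 and 0.81. *Ifi27l2a* (0.73) had the widest spread: its lowest CD4+ sample, at 227 CPM, lay next to the highest CD8+ sample at 226. On the CD8+ side, *Tagln2*, an actin-binding protein of the T cell synapse, stood at 323, 340.4 and 280.1 CPM against 567, 575 and 495. *Ostf1* was at 114, 119 and 104 CPM against 208, 211 and 193, and *Bin2* at 196, 205 and 167 against 330.2, 325 and 304. *Gramd3* (−0.89), the interferon-inducible GTPase gene *Tgtp2* (−0.89), *Dapl1* (−0.76), *Lgals3bp* (−0.73) and the ADP-ribosyltransferase gene *Art2b* (−0.70) had the same direction. The 24 genes chosen for the largest such changes, 12 in each direction, had adjusted *P* values up to 0.00846, for *Ifi27l2a* (edgeR quasi-likelihood, Benjamini-Hochberg); the choice itself requires groups that do not overlap.

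**Figure D3:**
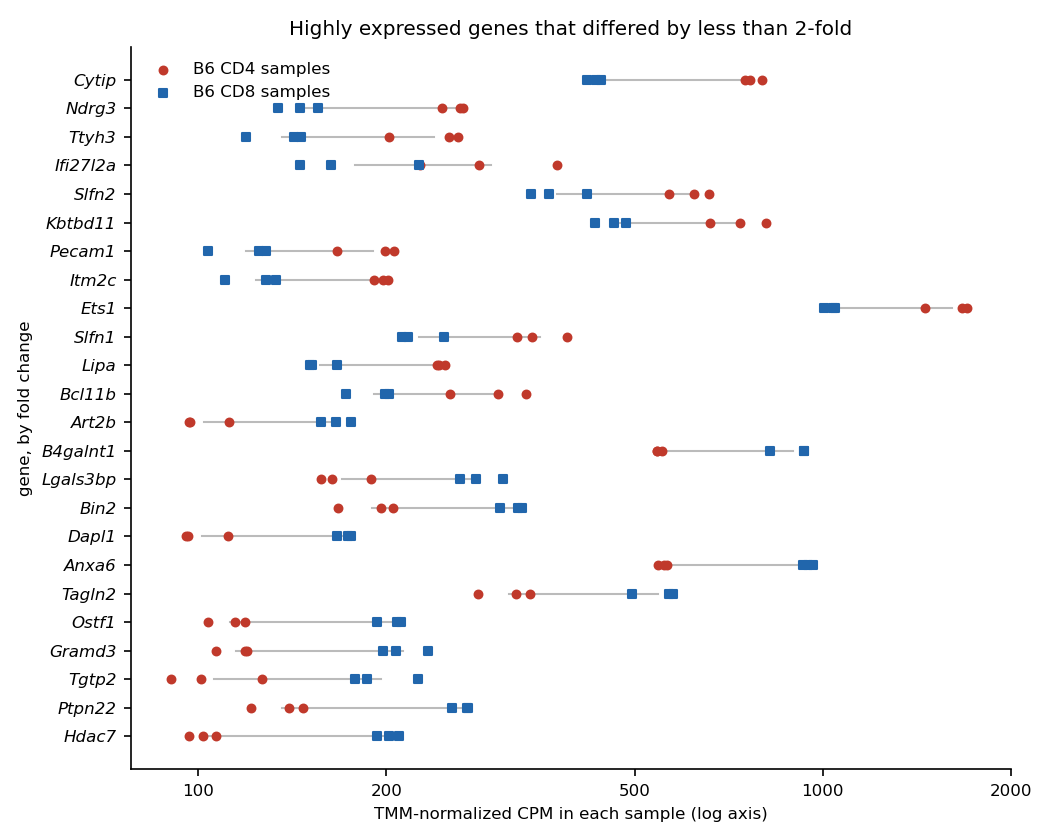
CPM in each sample (horizontal log axis) of 24 genes with at least 100 CPM in each group that differed by less than 2-fold; circles are the 3 CD4+ samples, squares the 3 CD8+ samples, grey lines join the means, and genes run from the largest change toward CD4+ at the top to the largest toward CD8+ at the bottom. *Cytip* samples lie at 751 to 800 against 419 to 442 CPM.

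Between 2- and 5-fold lie well expressed genes with stable lineage bias. *Tspan32*, a tetraspanin of blood cells, stood at 210.3, 199.6 and 222 CPM in the CD4+ samples and 52.2, 47.1 and 47.9 in the CD8+ samples. *Nxpe3* was at 166, 159 and 169 CPM against 41.0, 41.0 and 44.4, and *Tmem64* and *Rcan3*, the latter a calcineurin inhibitor, had log2 fold changes of 1.95 and 1.63. On the CD8+ side *Epsti1*, an interferon-inducible gene, stood at 80.5, 83.2 and 92.2 CPM against 368, 401 and 463. *Dnajc15*, a mitochondrial co-chaperone that limits respiration, was at 42.3, 44.0 and 39.0 CPM against 169, 181 and 182, and *Cd7* at 35.2, 38.5 and 56.9 against 149, 172 and 202. *Glipr2* (−2.09), *Ms4a4c* (−2.15), the thrombin receptor gene *F2r* (−2.08) and the lipid flippase gene *Atp8b4* (−1.84) were alike in size. After *Cd8a*, the largest fitted change toward CD8+ cells among genes with more than 3 counts in each group was that of *Adgrg5* (ENSMUSG00000061577.12, chr8:94923694-94943280), an adhesion G protein-coupled receptor. It stood at 0.182, 0.172 and 0.298 CPM in the CD4+ samples and 101, 103 and 91.0 in the CD8+ samples, a log2 fold change of −8.78 ± 0.180 (adjusted *P* = 1.42e-14, edgeR quasi-likelihood, Benjamini-Hochberg). *Gas7* and *Dmrta1* had 1 to 3 counts over the CD4+ samples and were higher in CD8+ cells by 556-fold and 363-fold, with 95% counting intervals of 99.5 to 22016 and 64.7 to 14366.

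Segments of the TCR differed between lineages in number and direction. Of 66 tested *Trav* segments, 28 were higher in CD4+ cells and 6 in CD8+ cells (median log2 fold change 0.57), and of 22 tested *Trbv* segments 11 and 5 (0.45). *Trbv31* stood at 65.3, 77.3 and 76.5 CPM in the CD4+ samples and 16.4, 17.0 and 15.8 in the CD8+ samples, and *Trbv12-1* at 9.51, 12.6 and 13.8 CPM against 46.4, 53.6 and 46.4. These were the largest changes of the β chain in each direction (log2 fold changes 2.15 and −2.03). *Trbv2* (1.37) and *Trbv3* (0.97) were also higher in CD4+ cells and *Trbv29* (−1.32), *Trbv17* (−1.28) and *Trbv14* (−1.15) in CD8+ cells. Among α segments *Trav14d-3-dv8* (1.45) and *Trav16n* (−1.21) were on opposite sides. Many *Trav* segments exist as near-identical copies, so single segments are less sure, and shared reads may also affect the counts of the family.

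Marker genes of regulatory T cells, which the CD4+ gate could hold, were present in the CD4+ samples. Of 15 tested markers, 13 were higher in CD4+ cells and 1 in CD8+ cells, with a median log2 fold change of 2.34; 7 of the 16 markers also belong to another list, among them *Tnfrsf4*, *Il2ra* and *Ctla4*. *Foxp3* stood at 32.6, 37.8 and 44.6 CPM in the CD4+ samples and 0.287, 0.182 and 0.529 in the CD8+ samples, and its exons overlap those of several neighbours. *Lrrc32*, which presents TGF-β on these cells, was at 6.59, 7.85 and 10.4 CPM against 0.0819, 0.0727 and 0.144. Both were lowest in replicate 1 and highest in replicate 3 of the CD4+ samples, as were *Tnfrsf4*, *Il2ra* and *Ccr8*. Summed over the list the level was 488, 552 and 651 CPM in the CD4+ samples and 384, 389 and 413 in the CD8+ samples. The most abundant marker was *Izumo1r* in CD4+ cells and *Itgae*, the only marker higher there, in CD8+ cells. Markers with few counts in CD8+ cells, as *Lrrc32*, could pass the filter only through groups where they are higher. The count of markers is therefore no test of this list. The part of regulatory cells in the CD4+ differences was not tested.

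Markers of memory cells were as unevenly spread, but toward CD8+ cells. Of 18 tested, 14 were higher in CD8+ cells and 2 in CD4+ cells (median log2 fold change −4.13), and all 18 belong to another list as well. They summed to 234, 263 and 298 CPM in the CD4+ samples and 1989.5, 2108 and 2462 in the CD8+ samples, with *Il2rb* the most abundant in the former and *Ly6c2* in the latter. Besides *Eomes*, *Tbx21*, *Cxcr3* and *Ccl5* above, they include *Itgb1*, at 81.6, 86.9 and 101 CPM in the CD4+ samples and 130.0, 154 and 162 in the CD8+ samples, and *S100a6*, which did not differ (−0.16). The gate on CD44- cells in the study's methods is meant to leave such cells out, and their part in the CD8+ differences was not tested. For NK, NKT and γδ T cells 1 of 10 tested markers was higher in CD4+ cells and 5 in CD8+ cells, and sums were low, 14.2, 14.8 and 15.0 CPM in the CD4+ samples and 20.3, 24.8 and 30.1 in the CD8+ samples. These counts were 0 and 3 without antigen receptor segments, and the latter was 3 with a filter at a mean of 1 CPM. *Trdc* was the most abundant in both, and *Zbtb16*, the defining factor of NKT cells, had 0 counts in all 6 samples. Here and among the memory markers, genes with few counts in CD4+ cells could pass the filter only through groups where they are higher. The counts of markers are therefore no test of these lists.

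B cell markers were detected in every sample. Of 18 tested, 11 were higher in CD4+ cells and 2 in CD8+ cells (median log2 fold change 0.85), but 4 were higher in CD4+ cells without CD8+ replicate 2, 6 without CD8+ replicate 3 and 7 without CD4+ replicate 3. The count toward CD8+ cells was 1 without CD4+ replicate 3, CD8+ replicate 2 or antigen receptor segments. Their sums came close without overlapping, at 912, 969 and 1009 CPM in the CD4+ samples and 909.9, 872 and 847 in the CD8+ samples, with *Ighm* the most abundant. *Cd74*, the class II invariant chain, stood at 135, 131 and 163 CPM in the CD4+ samples and 90.5, 69.1 and 65.4 in the CD8+ samples, and *Cd79b* was higher in CD8+ cells (−0.81). Myeloid markers summed to 70.9, 87.8 and 88.8 CPM and 81.4, 83.6 and 83.8, led by *Cst3*, with 1 of 11 tested higher in CD4+ cells and 1 in CD8+ cells, 0 and 0 with a filter at a mean of 1 CPM, and 2 in CD4+ cells without a filter. Stromal, endothelial and red cell markers summed to 6.19, 11.3 and 29.0 CPM and 2.50, 8.80 and 18.8, mostly *Hbb-bs*, with 1 of 6 tested higher in CD4+ cells, 0 without CD8+ replicate 1 or 2 or with a filter at a mean of 1 CPM, and 2 without a filter; the stromal chemokine gene *Ccl19* had 0 counts. Genes of RNA quality and nuclear RNA did not differ (0 and 0 of 8; 1 toward CD4+ cells without CD4+ replicate 2, and 2 and 1 without a filter on low counts), but replicate 1 stood apart in both groups: *Gm42418*, which holds ribosomal RNA sequence, was at 7151, 3287 and 2941 CPM in the CD4+ samples and 8877, 2618 and 2665 in the CD8+ samples. The sort on TCRβ is meant to leave out cells without it. The part of these cell types and of RNA quality in the differences was not tested.

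**Figure D4:**
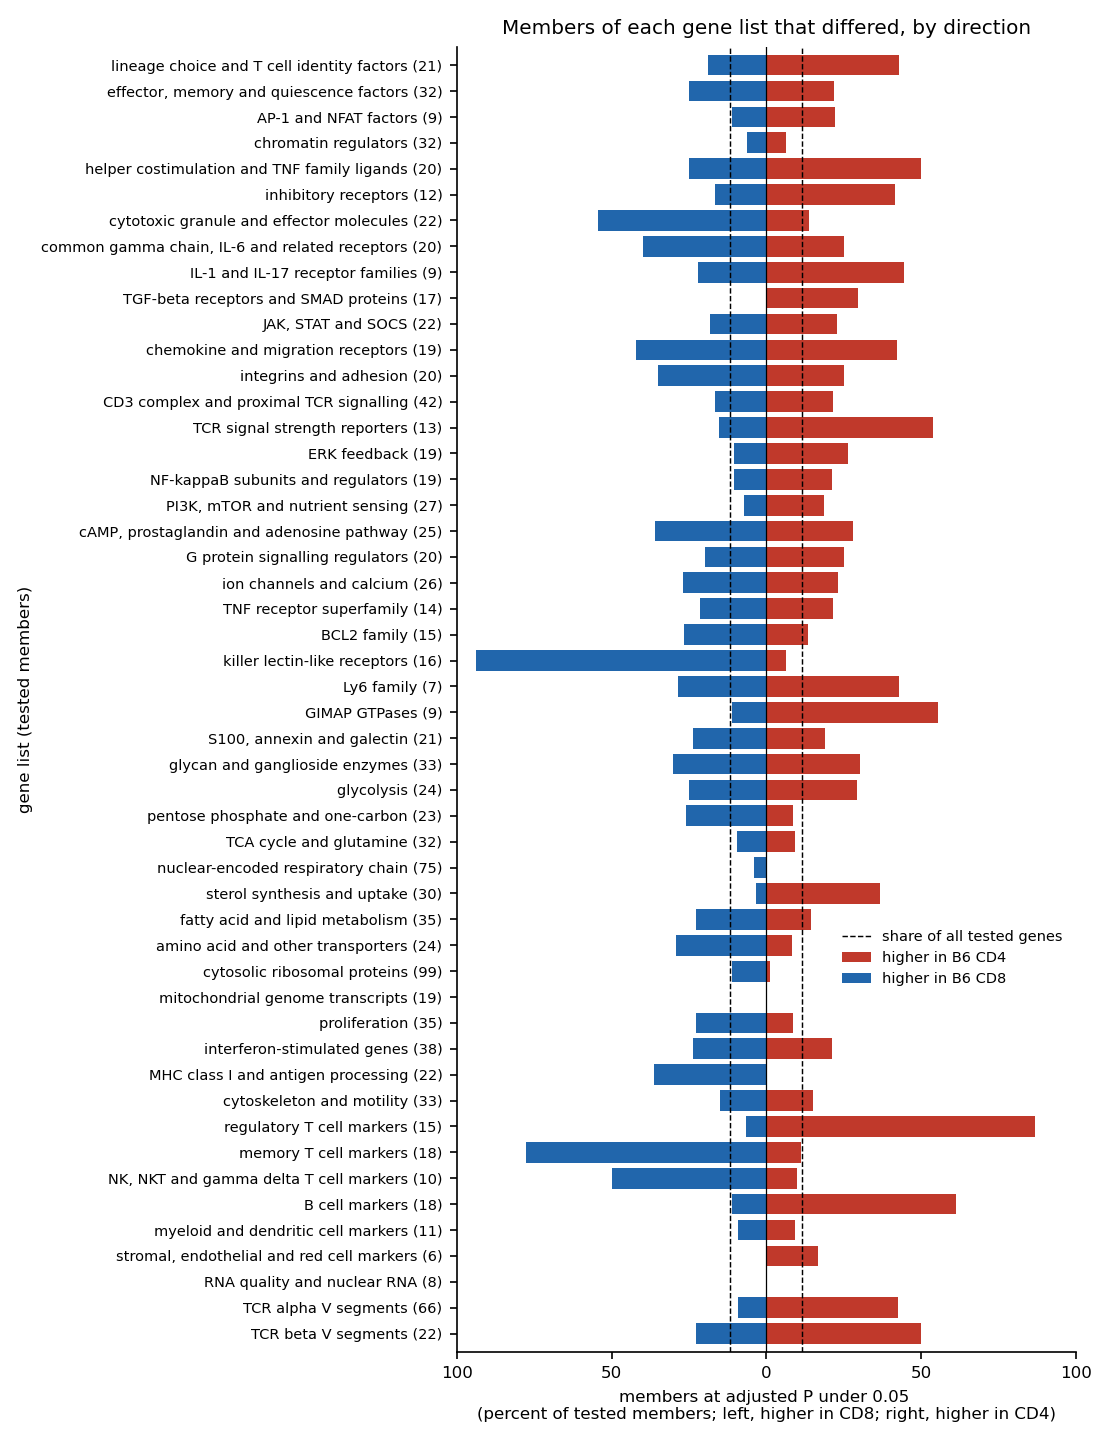
Share of the tested members of each gene list that were higher in CD4+ cells (red, right) or in CD8+ cells (blue, left) at an adjusted *P* under 0.05, in percent; the number tested follows each name, and dashed lines mark the shares over all tested genes, 11.4% and 11.7%. Killer lectin-like receptors (15 of 16) and memory markers (14 of 18) reach farthest toward CD8+, regulatory T cell markers (13 of 15) toward CD4+. Killer lectin-like receptors with few counts in CD4+ cells could pass the count filter only through groups where they are higher.

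The CD8.1 and CD8.2 cells of CD8 Dual mice give the helper against cytotoxic contrast in other samples, which share with the B6 comparison the filter, the scaling and the estimate of spread. There, 14.9% of tested genes were higher in CD8.1 cells and 13.8% in CD8.2 cells. Most small B6 differences kept their direction there, and so did most large ones. Of 601 genes higher in B6 CD4+ cells by less than 1.5-fold, 562 had the same direction in CD8.1 against CD8.2 cells and 323 also passed the test there, and of 708 higher in B6 CD8+ cells the numbers were 661 and 431. Over 5-fold, 206 of 206 genes higher in B6 CD4+ cells kept their direction and 195 passed there, and of 215 higher in B6 CD8+ cells 199 and 172. Small changes have less chance to pass any such test. For the highly expressed genes that differed by less than 2-fold, 128 of 133 and 195 of 202 kept their direction. The test of the difference itself, CD8 Dual minus B6, called 1.87% of tested genes. Among these highly expressed genes it called 1 in each direction, but among genes over 5-fold higher in B6 CD8+ cells it called 66 of 215, against 8 of 206 over 5-fold higher in CD4+ cells. Median expression differed between these sets, 2.49 CPM for the 215 genes and 0.744 for the 206, which makes their counts hard to compare. The numbers called by this test depend on CD8.1 replicate 1. Without it the test called 10.1% of genes, 22 of the 133 and 30 of the 202 highly expressed genes, and 93 of 215 and 18 of 206 over 5-fold, and without any other sample 1.23% to 1.84%, 0 or 1 and 1, and 54 to 66 and 4 to 10. DESeq2 called 3.13%, 6 and 6, and 84 and 15, a replicate block gave 14 of the 206 and limma-voom 4. *Il2rb* shows the difference, with log2 fold changes of −2.31 in B6 and −0.39 in CD8 Dual cells (difference 1.93, adjusted *P* = 4.78e-07, edgeR quasi-likelihood, Benjamini-Hochberg). *Itgae* went from −5.73 to −1.79 and *Ly6c2* from −7.56 to −4.61. In contrast *Dnajc15* (−2.09 and −2.08), *Anxa6* (−0.77 and −0.72) and *Slc6a19* (−7.08 and −6.77) had like sizes in both strains.

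Promoters were read for letters that Runx3 and other lineage factors prefer, in the 250 bases before each gene start of the RefSeq promoter table (GRCm38.p6), on both strands. The core RUNX motif TGTGGT, or ACCACA on the other strand, occurs in 14.2% of all 27025 promoters and in those of 979 of the 8872 tested genes matched by symbol. Of the genes past the study's limits, 40 of 153 matched genes higher in CD8+ cells held it (26.1%), and 26 of 160 higher in CD4+ cells. Over all genes past the adjusted limit the numbers were 163 of 1153 matched genes higher in CD8+ cells (14.1%) and 126 of 1077 higher in CD4+ cells (11.7%), against 979 of 8872. Among the genes past the study's limits the T-box motif GGTGTGA was in 8 higher in CD8+ and 5 higher in CD4+ cells (2.76% of tested genes and 3.31% of all promoters), the TCF and LEF motif CTTTGA in 19 and 18 (10.5% and 14.1%), and the E-box CAGCTG in 23 and 24 (10.9% and 12.8%). Over all genes past the adjusted limit, the T-box motif was in 2.60% of matched genes higher in CD8+ cells and 2.97% of those higher in CD4+ cells. The TCF and LEF motif was in 10.6% and 9.19%, and the E-box in 11.4% and 14.2%. No motif contains another. A match describes letters, not binding. Promoters of *Runx3* itself and of 3 genes with large differences toward CD8+ cells are shown, 5′ to 3′ on the strand of the gene with the RUNX letters in capitals, chosen because they hold a match, at chr4:135120395-135120644 (+), chr8:94923444-94923693 (+), chr15:75111972-75112221 (−) and chr10:79688770-79689019 (+). *Runx3* holds 2 matches and the others 1 each, while *Cd8a* and *Zbtb7b* hold 0 in this window. The *Zbtb7b* window, chr3:89393379-89393628 (−), lies inside the gene span given above and does not cover the bases before that start. Of the 10 promoters read, beside that of *Cd8a*, of the largest changes over 5-fold toward CD8+ cells, 7 held a match and *Klra6*, *Dmrta1* and *Slc6a19* did not, and of 14 with smaller changes 3 did and 11 did not.
Runx3: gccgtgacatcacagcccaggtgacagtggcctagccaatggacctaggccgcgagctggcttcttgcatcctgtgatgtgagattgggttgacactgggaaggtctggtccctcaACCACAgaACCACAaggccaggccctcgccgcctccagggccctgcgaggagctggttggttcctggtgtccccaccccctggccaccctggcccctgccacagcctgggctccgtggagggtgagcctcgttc
Adgrg5: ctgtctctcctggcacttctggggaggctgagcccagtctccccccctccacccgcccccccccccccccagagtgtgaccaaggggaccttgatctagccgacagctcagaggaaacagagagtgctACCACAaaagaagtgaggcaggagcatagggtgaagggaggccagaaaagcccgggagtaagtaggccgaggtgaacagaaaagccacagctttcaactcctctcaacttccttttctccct
Ly6c2: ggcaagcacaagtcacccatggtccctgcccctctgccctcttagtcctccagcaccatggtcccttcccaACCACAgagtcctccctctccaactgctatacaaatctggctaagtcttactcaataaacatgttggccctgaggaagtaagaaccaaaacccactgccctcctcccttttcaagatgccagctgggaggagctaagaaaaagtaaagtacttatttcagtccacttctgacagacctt
Gzmm: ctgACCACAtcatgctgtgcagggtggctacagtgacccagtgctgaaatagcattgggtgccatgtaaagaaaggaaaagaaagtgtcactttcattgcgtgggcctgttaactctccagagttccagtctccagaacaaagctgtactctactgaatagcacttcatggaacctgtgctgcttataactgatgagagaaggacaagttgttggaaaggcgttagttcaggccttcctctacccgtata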

How the data were processed

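RNA-seq of sorted LN T cells was read from the deposited table of raw gene counts, which the authors made with STAR and RSEM on mm10; the unit is counts. Groups and replicate numbers came from the column names and labels, and 0 columns were unmapped. Genes were filtered (filterByExpr over 4 groups), scaled by TMM and fitted for all 12 samples in edgeR 4.0.16 (R 4.3.3) with a mean per group; the quasi-likelihood test gave *P* values, adjusted by Benjamini-Hochberg over 13118 genes. The common biological coefficient of variation was 11.2%. Deviations of samples from their group means were correlated between the B6 groups (*r* across genes, which are not independent replicates). Replicates of equal number gave 0.126, 0.138 and 0.257, and pairs of unequal number −0.221 to 0.0999. As all pairs of equal number were above 0.1, a fit with a replicate block was also made. Named genes were the co-receptors and lineage markers, the 12 largest changes over 5-fold, the 12 largest under 2-fold and the 8 largest of 2- to 5-fold per direction, and per list the 6 largest per direction and the 2 most counted. Members and the 51 lists were chosen with earlier results of these data known. Alternatives were other scalings, DESeq2 1.42.0, limma-voom 3.58.1, other filters and limits, the B6 samples alone, leaving out antigen receptor segments and leaving out each sample. The fit was also tried on simulated data, and the outcome is not reported or used here. Some named genes are not reported here; counts of genes and lists include them. Tables and figures used Python 3.11.15, pandas 2.3.3, scipy 1.17.1 (exact Clopper-Pearson intervals) and matplotlib 3.10.9.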

Additional observations from a re-analysis of the deposited data

Results flagged for a closer look

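The lineage difference was tested for a difference between the strains, CD8 Dual (CD8.1 over CD8.2) minus B6 (CD4+ over CD8+), on the log2 scale, and 76 of 507 named genes passed an adjusted *P* under 0.05 (edgeR quasi-likelihood, Benjamini-Hochberg), 59 above 0 and 17 below. A positive value means relatively more in CD8.1 cells, so for a gene higher in CD8+ cells it means a smaller lineage difference in CD8 Dual mice or, as for *Ccr2* and *Cd44*, a value of the other sign. For a gene higher in CD4+ cells, as *Cish*, *Pim1* and *Rgs1*, a positive value means a larger lineage difference in CD8 Dual mice. Values for *Kcnj8*, *Klre1* and other genes with few counts in a group depend on the fitted floor. Without CD8.1 replicate 1, 108 named genes passed above 0 and 39 below, all 76 among them, and over all tested genes 718 passed toward CD8.1 and 638 toward CD8.2 cells in place of 207 and 38. Without any other sample 59 to 69 of the 76 kept the call, with 10 to 15 named genes below 0. No cause was tested; with a replicate block, 68 genes in place of 38 passed toward CD8.2 cells over all tested genes.

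The co-receptors, whose locus differs by design, gave *Cd4* −6.93, *Cd8a* 7.31 and *Cd8b1* 2.70. Helper genes below 0 were *Cd40lg* −0.94, *Lag3* −1.24, *Itgb3* −0.58, *St8sia6* −1.19, *Tgfbr3* −0.97, *Ly6a* −0.69, *Tspan32* −0.59, *Acsl3* −0.996, *Ifi44* −1.80 and *Slc16a5* −0.55, and *Lars2*, a marker of RNA quality, gave −4.18.

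Cytotoxic and NK receptor genes were *Ccl5* 3.47, *Cst7* 1.58, *Gzmm* 2.45, *Nkg7* 1.81, *Xcl1* 2.08, *Klrc1* 3.60, *Klre1* 6.67 and *Cd160* 1.90. Homing, adhesion and cytokine receptor genes were *Ccr2* 4.62, *Cxcr3* 1.51, *Cxcr6* 2.67, *Gpr15* 5.58, *Itgae* 3.93, *Itgb1* 0.89, *Cd44* 0.92, *Il12rb1* 1.34, *Il18rap* 2.90, *Il2rb* 1.93, *Tnfrsf1b* 0.64, *Tnfsf14* 1.54 and *Ly6c2* 2.95.

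Signalling, metabolic and cytoskeletal genes were *Adgrg5* 2.90, *Atp2b4* 1.55, *Cd7* 1.25, *Cdk6* 1.26, *Cish* 0.98, *Dusp4* 2.21, *Gna15* 2.50, *Hopx* 1.62, *Kcnj8* 6.62, *Kcnq5* 1.35, *Nt5e* 0.92, *Pim1* 0.69, *Pmaip1* 1.45, *Rgs1* 1.12, *Acsbg1* 1.21, *Glipr2* 0.73, *Myo1f* 3.05, *S100a11* 1.06, *S100a6* 3.19 and *Vim* 0.62.

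Markers of regulatory and γδ T cells were *Capg* 0.75, *Gpr83* 2.87, *Ikzf2* 2.65, *Ikzf4* 1.06, *Nrp1* 1.51, *Tcrg-C1* 3.63, *Tcrg-C2* 3.37 and *Tcrg-C4* 4.30. TCR segments were *Trav14n-3* −0.89, *Trav16* 1.07, *Trav16n* 1.28, *Trbv12-1* 1.34, *Trbv12-2* 0.95, *Trbv14* 0.74, *Trbv17* 0.99, *Trbv20* −0.73, *Trbv26* −1.20, *Trbv29* 0.60, *Trbv3* −0.50 and *Trbv31* −0.80.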

How the results depend on the processing

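Among counts over all tested genes in the B6 comparison, other settings changed the number past the 5-fold limit most. Without a filter on low counts, 624 genes passed toward CD4+ and 351 toward CD8+ cells, since genes with hardly any counts then enter. With a filter at a mean of 1 CPM, 94 passed toward CD4+ and 144 toward CD8+ cells, and with the B6 samples alone 153 and 204. The balance of large changes between lineages therefore depends on the filter and on the samples fitted. A 2-fold limit gave 693 and 554 genes. Highly expressed genes under 2-fold numbered 279 and 378 when 50 CPM was enough. Left-out samples and the replicate block moved none of these counts by more than 1.5 times; counts of lists that moved are given with the lists. In the test of the difference between strains, the Wald test of DESeq2 gave 319 genes toward CD8.1 and 91 toward CD8.2 cells, and the replicate block 68 toward CD8.2 cells. Leaving out a sample gave 146–718 toward CD8.1 and 18–638 toward CD8.2 cells, with 718 and 638 without CD8.1 replicate 1.

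With a replicate block the call of 6 named genes changed, and no direction; among them *Gimap4*, *Ikzf2*, *Ptprc*, *Rpsa* and *mt-Cytb* gained it. Of 507 named genes, 422 kept their call in each of the 16 settings that tested them, 85 changed it in some and 0 reversed; the B6 samples alone tested 497 of them, DESeq2 506, a filter at a mean of 1 CPM 482 and the fit without antigen receptor segments 472, and all others 507; the 66 named for size or as markers all kept theirs.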

Other observations

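Each group holds 3 samples of pooled cells from male mice of a single strain and age range, and nothing states that they came from separate mice. Values are RNA levels in bulk and say nothing of protein, of splice forms or of how many cells carry a transcript. Strand use by the authors is unknown, so overlapping genes, near-identical copies and TCR segments are less sure than single-copy genes. The sort gates differ between the labels and the methods. Regulatory, memory-like and B cell transcripts were present, and their part in the lineage differences was not tested.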
